A study of Mus musculus with 12 samples.

Results

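Liver gene expression at zeitgeber time (ZT) 22 was compared with that at ZT10 in night-fed Cry1/Cry2 double-knockout mice. The comparison used the 2 libraries of ZT22 and the 2 libraries of ZT10, which are 4 of the 12 libraries of the series, and all 22618 genes of the deposited exon counts. The other 8 libraries (ZT02, ZT06, ZT14 and ZT18) served only to estimate the spread between replicates. Both groups came from male C57BL/6j mice, 12 to 16 weeks old, with a conventional gut flora, so by their labels the groups differed only in the time of sampling. Both lacked functional copies of Cry1 and Cry2, and no wild-type library was analysed here. Zeitgeber time counts hours from lights on, and mice rest in the light and feed in the dark. ZT22 thus lies late in the feeding phase and ZT10 late in the resting phase. The light schedule, the exact hours of food access and the time since the last meal are not given in the sources used here, so "fasting" at ZT10 is not a measured state.

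In liver, feeding and resting alternate with the storage and the release of fuel. After a meal, insulin and the SREBP transcription factors drive fatty acid and cholesterol synthesis, and secretion of plasma proteins loads the endoplasmic reticulum. In the resting phase, glucagon, glucocorticoids and the nuclear receptor PPARα favour gluconeogenesis and fatty acid oxidation. The cryptochromes CRY1 and CRY2 repress CLOCK:BMAL1 within the circadian clock, and a liver without them still receives feeding signals. Hepatocytes also secrete acute-phase proteins when IL-6 reaches them, and interferon-stimulated genes are part of the innate antiviral programme of most cells.

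Library totals were 37714951 and 38942480 exon counts at ZT22 and 40343264 and 41205270 at ZT10. The unit CPM expresses a gene's reads relative to its library's total, corrected for composition by TMM factors, and replicate 1 is always named before replicate 2. The labels do not say whether the 2 libraries of a time point are separate animals. The p-values therefore describe the spread of these libraries only, which may be technical. The hepatocyte markers were abundant in all 4 libraries, with Alb between 60800 and 65700 CPM. In this bulk tissue, fewer cells of a type and less RNA per cell cannot be told apart. Reads remained at both targeted genes. Cry1 stood at 5.71 and 9.56 CPM at ZT22 and at 13.6 and 8.21 CPM at ZT10. Cry2 stood at 13.2 and 17.5 CPM at ZT22 and at 20.4 and 17.7 CPM at ZT10. Neither difference passed the test (edgeR quasi-likelihood, adjusted p = 0.328 and 0.334), and a count per gene cannot tell deleted from remaining exons, which leaves the genotype unchecked here.

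Single libraries stood apart in several genes, which were chosen after their values were seen. ZT22 replicate 1 carried 38.4 CPM of the transcription factor gene Myc, against 1.38 to 4.95 CPM in the other 3 libraries. The same library held 11.8 CPM of the bile duct keratin gene Krt19 (0.852 to 1.24 elsewhere), 9.84 CPM of the lactoferrin gene Ltf (0 to 0.117 elsewhere) and 2.70 CPM of the pancreatic gene Ctrb1 (0 to 0.0260 elsewhere). Another pancreatic gene, Cela2a, went the other way, at 0.288 and 1.30 CPM at ZT22 and at 4.46 and 0.537 CPM at ZT10. The summed level of 7 pancreatic markers was 2.98 and 1.48 CPM at ZT22 against 4.46 and 0.537 CPM at ZT10. The ZT10 libraries also differed from each other. Pck1, the gluconeogenic PEPCK gene, was at 5052 CPM in replicate 1 of ZT10 and at 1845 CPM in replicate 2. Tat, the tyrosine aminotransferase gene, was at 1557 and 369 CPM, and Dusp1, a phosphatase gene induced by glucocorticoids, at 47.7 and 12.5 CPM. The lipogenic gene Scd1 went the other way, with 1483 CPM in replicate 1 and 5838 CPM in replicate 2. Both libraries of each group are therefore given throughout.

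Few genes passed the test. Of 17142 tested genes, 40 were called at an edgeR quasi-likelihood adjusted p under 0.05 (0.233%), 24 of them higher at ZT22 (0.14%) and 16 lower (0.0933%). The difference was at least 2-fold in 22 of the 40, 12 higher and 10 lower, and in all 40 the libraries of the groups did not overlap. The median log2 difference over all tested genes was 0.002. An unadjusted p under 0.05 was reached by 3173 genes (18.5%), 1488 of them higher (8.68%) and 1685 lower (9.83%). Both ZT22 libraries lay above both ZT10 libraries in 4141 genes (24.2%) and below them in 4504 (26.3%), and these shares are the background for the gene groups that follow. The smallest adjusted p was 0.0173, and 512 genes had an adjusted p under 0.10. Leaving out libraries also changed the set of tested genes, and without a ZT10 or ZT22 library the contrast itself. The number of calls varied with the libraries used. It was 250 without the 4 libraries of ZT02 and ZT06, among them all 40, and 3 and 2 without ZT18 replicates 1 and 2. It was 8 without ZT10 replicate 1, 5 without ZT22 replicate 1 and 72 without ZT02 replicate 1. It was 25, 5 of them among the 40, without ZT10 replicate 2, and 57, 11 of them among the 40, without ZT22 replicate 2. The 4 libraries alone gave 1 call, which is not among the 40. DESeq2 on the same 12 libraries called 711 genes, 382 higher and 329 lower, 37 of the 40 among them. It gave the other 3, Capn11, Gm9992 and Gnat2, no adjusted p.

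**Figure D1:**
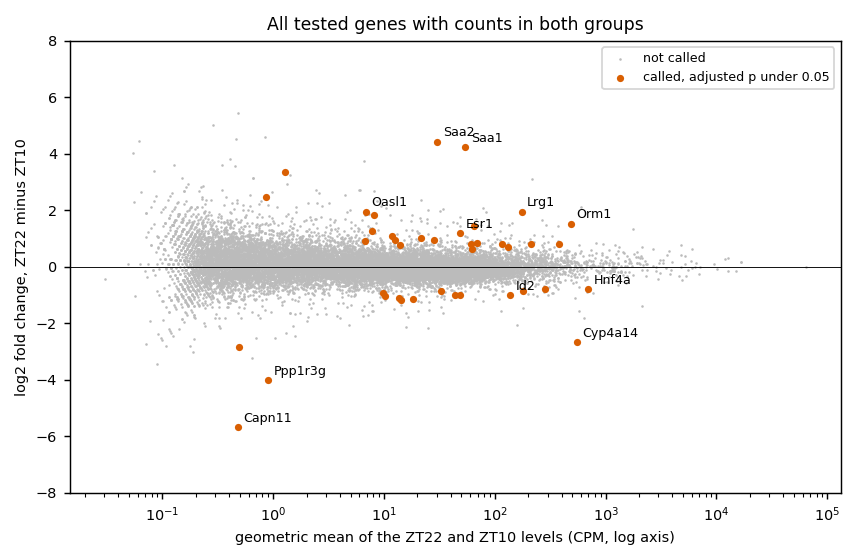
Log2 fold change (ZT22 minus ZT10) of each tested gene against the geometric mean of its ZT22 and ZT10 levels in CPM on a log axis, with the 40 called genes in orange and the rest in grey. Saa1, Saa2 and Ptk6 lie highest among the called genes and Capn11 and Ppp1r3g lowest; 17136 genes are drawn, 1 lies outside the axis and 5 had a group mean of 0.

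The highest called rises were in acute-phase genes, which encode plasma proteins that the liver secretes in inflammation. Saa1 (serum amyloid A1, chromosome 7, 46740497 to 46742980, minus strand, mm10) was at 155 and 316 CPM at ZT22 and at 19.3 and 5.76 CPM at ZT10, so the log2 difference was 4.23 with an SE of 0.57 (edgeR adjusted p = 0.0345; later values after ± are SEs too). Its neighbour Saa2 (46751790 to 46754313, plus strand) was at 95.8 and 185 CPM against 9.68 and 3.43 CPM, a log2 difference of 4.42 ± 0.68 (edgeR adjusted p = 0.0347). In both genes ZT22 replicate 2 was the highest and ZT10 replicate 2 the lowest library. Saa1 and Saa2 are near-identical, which makes it uncertain how the authors' counting divided their reads. Orm1, which encodes the drug-binding orosomucoid, was at 768 and 894 CPM against 272 and 306 CPM (log2 difference 1.52 ± 0.26, edgeR adjusted p = 0.0471). Orm1, too, belongs to a family of close copies. Lrg1, a leucine-rich glycoprotein gene of the acute phase that was not on the list, was at 284 and 401 CPM against 84.3 and 93.3 CPM. Its log2 difference of 1.95 ± 0.20 had the smallest p of all genes (edgeR adjusted p = 0.0173). The calls were not equally stable. That of Lrg1 was lost in 1 of the 12 leave-one-out fits (each without 1 of the 12 libraries), the one without ZT10 replicate 1. That of Saa1 was lost in 3 of 12, without ZT10 replicate 2 or either ZT18 library, and that of Saa2 in 6 of 12, without any 1 library of ZT10, ZT18 or ZT22. That of Orm1 held in 4 of 12 and was lost without any 1 library of ZT10, ZT14, ZT18 or ZT22. Over all alternatives the log2 difference stayed between 1.67 and 2.17 for Lrg1 (adjusted p up to 0.15), 3.61 and 5.35 for Saa1 (up to 0.243), 3.86 and 5.35 for Saa2 (up to 0.217) and 1.41 and 1.63 for Orm1 (up to 0.181).

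The promoter stretches of Saa1 and Saa2 are shown because these 2 genes moved together and their upstream sequence is nearly the same. Each stretch runs from 250 to 51 bases before the RefSeq start site (GRCm38.p6, 200 bases, 5′ to 3′ on the gene's strand), Saa1 at chr7:46743031-46743230 on the minus strand and Saa2 at chr7:46751583-46751782 on the plus strand. Capitals mark bases that differ between them: 188 of 201 aligned positions were equal (93.5%), 11 were substituted and 2 were gapped.
Saa1: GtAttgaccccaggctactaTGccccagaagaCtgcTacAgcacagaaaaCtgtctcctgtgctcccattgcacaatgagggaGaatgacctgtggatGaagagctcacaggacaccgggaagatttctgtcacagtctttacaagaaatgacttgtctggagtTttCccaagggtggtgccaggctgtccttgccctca
Saa2: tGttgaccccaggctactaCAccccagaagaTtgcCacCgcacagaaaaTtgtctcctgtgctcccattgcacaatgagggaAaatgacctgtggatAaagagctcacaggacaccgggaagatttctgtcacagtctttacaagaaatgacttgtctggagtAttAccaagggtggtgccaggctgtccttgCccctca
No window of the 26 tested acute-phase genes with a RefSeq promoter held the letters GGGANNTTCC of the NF-kB site on either strand, against 1.72% of 11319 tested genes with a window. With so low a background share, no match in 26 windows does not show that these promoters lack the site. Other forms of the site were not searched. The STAT site letters TTCNNNGAA were in 26.9% of the acute-phase windows, against 8.48%. This share was not particular to the acute phase. It was 30.8% in the interferon list, 26.7% in the glucocorticoid-responsive list and 23.5% in the bile acid list, but 0% in the fasting list. Among called genes, 2 of 18 windows of the rises (11.1%) and 0 of 13 of the falls held these letters. These matches describe letters only. Windows here and in what follows reach from 250 bases before to 50 after the start.

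Of the 30 acute-phase genes tested, 3 were called higher and none lower. Both ZT22 libraries lay above both ZT10 libraries in 18 and below in 3, and 15 had an unadjusted p under 0.05 on the higher side and 2 on the lower. The median log2 difference was 0.41, against 0.002 over all tested genes. The genes in this and the next sentences were not called and were chosen after their values were seen. Lcn2, which encodes the iron-siderophore carrier lipocalin 2, was at 10.4 and 37.4 CPM against 1.83 and 1.75 CPM (log2 difference 3.74 ± 0.76, edgeR adjusted p = 0.0657). Orm2 was at 25.4 and 71.6 CPM against 6.74 and 12.2 CPM (edgeR adjusted p = 0.0741). Apcs, the serum amyloid P gene, was at 49.98 and 110 CPM against 29.8 and 30.0 CPM (edgeR adjusted p = 0.0686). In all 3 of these genes ZT22 replicate 2 was more than 2-fold above replicate 1. Saa4, a constitutive member of the serum amyloid A family, was at 213 and 204 CPM against 125 and 66.9 CPM, and Serpina3n, an antichymotrypsin gene, at 325 and 499 CPM against 224 and 223 CPM. The fibrinogen genes differed less, with Fgb at 4961 and 6072 CPM against 4017 and 4182 CPM. Hp, the haptoglobin gene, overlapped, at 2659 and 3923 CPM against 2872 and 1422 CPM. Hamp, which encodes the iron hormone hepcidin, lay on the other side, at 42.2 and 114 CPM against 447 and 201 CPM (log2 difference -2.05 ± 0.70, edgeR adjusted p = 0.163). The list thus held genes on both sides, and its 6 highest were in the serum amyloid, lipocalin and orosomucoid genes.

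A second group of called rises belonged to the interferon response and the RNA sensors of innate immunity. Oasl1, an oligoadenylate synthetase-like gene (chromosome 5, 114923240 to 114937915), was at 13.5 and 13.6 CPM at ZT22 and at 4.34 and 2.73 CPM at ZT10 (log2 difference 1.94 ± 0.31, edgeR adjusted p = 0.0381). Dhx58, which encodes the RNA helicase LGP2, was at 10.9 and 12.96 CPM against 5.34 and 4.64 CPM (1.26 ± 0.18, edgeR adjusted p = 0.0345). Ddx58, the gene of the viral RNA sensor RIG-I, was at 39.5 and 39.1 CPM against 20.99 and 20.3 CPM (0.93 ± 0.13, edgeR adjusted p = 0.0345). In all 3 genes both ZT22 libraries lay well above both ZT10 libraries. Rnf213, a large interferon-inducible ubiquitin ligase gene, was at 264 and 298 CPM against 156 and 164 CPM, and Trim14, an adaptor gene of antiviral signalling, at 19.0 and 15.6 CPM against 9.05 and 7.35 CPM. Trim14 shares 31.3% of its exon bases with Nans on the opposite strand, and no source used here gives the strand setting of the counting, so its reads are uncertain. Of these 5, only Oasl1 was on the interferon list. The calls of Oasl1, Dhx58, Ddx58 and Rnf213 each held in 6 of the 12 leave-one-out fits and that of Trim14 in 7; all 5 were lost without ZT10 replicate 1, ZT10 replicate 2, ZT18 replicate 1, ZT18 replicate 2 or ZT22 replicate 1. Adjusted p over all alternatives reached 0.187 for Oasl1, 0.22 for Dhx58, 0.207 for Ddx58, 0.229 for Rnf213 and 0.203 for Trim14.

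Of the 33 interferon response genes tested, 1 was called higher and none lower. Both ZT22 libraries lay above both ZT10 libraries in 26 and below in none, and the median log2 difference was 0.62. An unadjusted p under 0.05 was reached by 18 on the higher side and by none on the lower side. The next examples were chosen after their values were seen and were not called. Ifit1, which encodes a protein that binds foreign RNA caps, was at 9.66 and 12.9 CPM against 3.49 and 3.66 CPM (log2 difference 1.65 ± 0.34, edgeR adjusted p = 0.0686). Isg15, the gene of a ubiquitin-like modifier, was at 3.35 and 4.52 CPM against 1.35 and 0.980 CPM (edgeR adjusted p = 0.0741). Xaf1, an interferon-induced pro-apoptotic gene, was at 4.50 and 5.38 CPM against 2.33 and 1.96 CPM (edgeR adjusted p = 0.0536). Groups did not overlap in these genes, which all had low levels. Gbp10, an interferon-inducible GTPase gene, varied more, with 8.17 and 19.6 CPM against 5.54 and 2.10 CPM. Irf7 was at 20.2 and 29.4 CPM against 14.6 and 18.2 CPM. DESeq2 called 12 members of this list and 10 of the acute-phase list higher, and none of either lower.

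Upstream stretches of Isg15 and Ifit1 are shown for the interferon list because many of its members hold the same letters. Capitals mark the interferon-stimulated response element, searched as GAAANNGAAA on both strands. Isg15 (chr4:156200869-156201068, minus strand) holds 3 overlapping matches, the first base of each 78, 72 and 66 bases before the start site. Ifit1 (chr19:34640639-34640838, plus strand) holds 2, at 104 and 85 bases before it, both read on the opposite strand.
Isg15: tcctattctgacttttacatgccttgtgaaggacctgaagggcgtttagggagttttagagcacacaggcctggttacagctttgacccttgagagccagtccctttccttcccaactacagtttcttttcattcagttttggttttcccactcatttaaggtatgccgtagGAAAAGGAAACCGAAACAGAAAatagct
Ifit1: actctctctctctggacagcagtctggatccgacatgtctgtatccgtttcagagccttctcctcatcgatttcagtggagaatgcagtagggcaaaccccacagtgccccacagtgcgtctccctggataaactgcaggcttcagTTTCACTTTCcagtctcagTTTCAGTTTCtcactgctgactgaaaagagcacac
These letters were in 14 of the 26 interferon genes with a RefSeq window (53.8%), against 3.92% of all tested genes with a window and 3.44% of the 32851 windows of the table. The list was made of known interferon response genes, so this share describes the list and not the difference between ZT22 and ZT10. Among called genes, 2 of 18 windows of the rises (11.1%) and 0 of 13 of the falls held the letters. The windows of Oasl1 and Xaf1 held no match.

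Marker genes of blood cells differed in the same samples. The summed level of 7 neutrophil markers was 12.8 and 2.99 CPM at ZT22 and 1.38 and 1.33 CPM at ZT10, and 9.84 CPM of the first value was Ltf; Camp and Ly6g were at 0 in 3 of the 4 libraries. The summed level of 10 lymphocyte markers was 7.67 and 8.52 CPM against 4.66 and 7.30 CPM. The summed level of 6 erythroid markers, mostly haemoglobin genes, was 273 and 196 CPM against 122 and 119 CPM. S100a9, the most abundant of the other neutrophil markers, was at 1.89 and 1.43 CPM against 0.878 and 0.560 CPM, and S100a8 at 0.838 and 1.14 CPM against 0.376 and 0.350 CPM. The 11 Kupffer cell markers summed to 445 and 545 CPM against 461 and 448 CPM, and so overlapped. The part of these cells in the acute-phase and interferon differences was not tested.

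**Figure D2:**
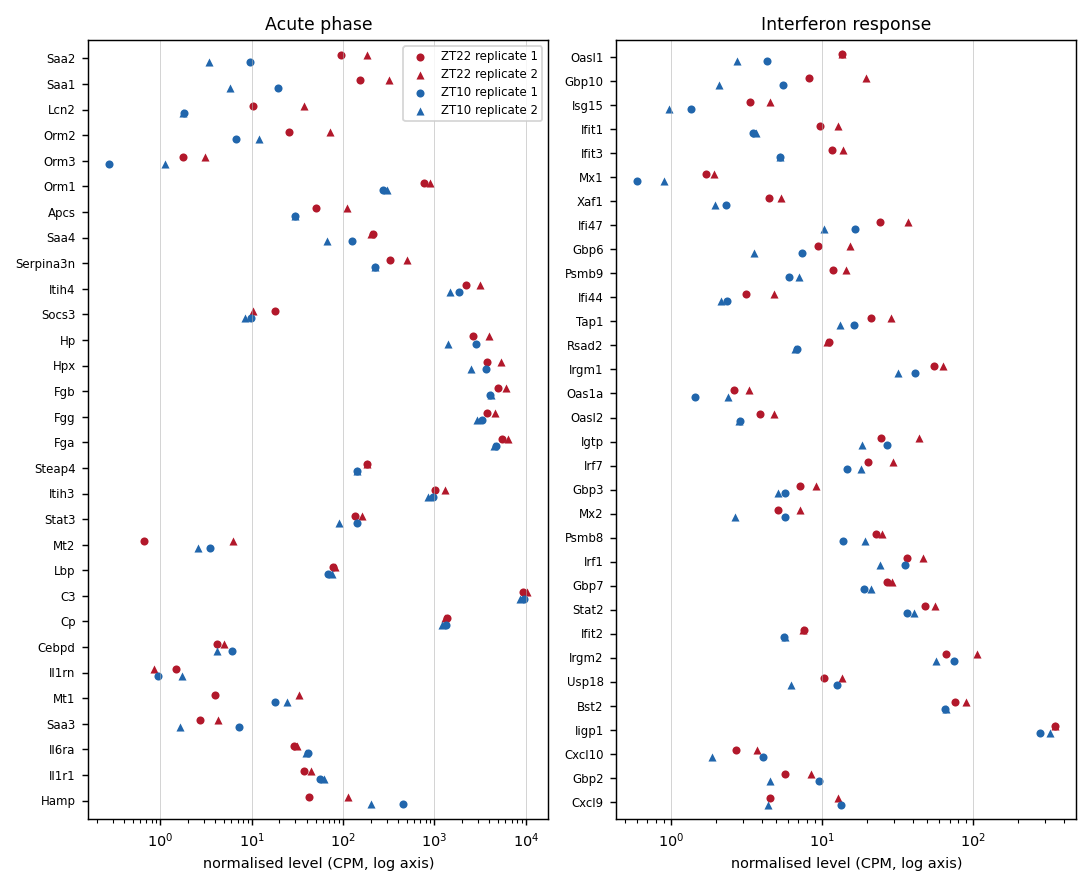
Levels of the 30 acute-phase genes (left) and 32 of the interferon response genes (right) in CPM on a log axis, 1 point per library, red for ZT22 and blue for ZT10, circles for replicate 1 and triangles for replicate 2, genes ordered by log2 difference. Saa2 and Saa1 head the left panel and Hamp, on the other side, ends it; in the right panel 25 of the genes drawn have both red points to the right of both blue points.

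Cholesterol synthesis genes had the highest median of the 22 gene lists, although none was called. All 25 tested members of the list of cholesterol synthesis genes and targets of SREBP2 had a positive log2 difference, with a median of 1.44. In 24 of them both ZT22 libraries lay above both ZT10 libraries, and 19 had an unadjusted p under 0.05. Mvk, the mevalonate kinase gene, was at 19.9 and 23.3 CPM against 3.94 and 8.17 CPM (log2 difference 1.83 ± 0.37, edgeR adjusted p = 0.067). Mvd, the mevalonate diphosphate decarboxylase gene, was at 16.1 and 22.9 CPM against 3.36 and 4.36 CPM, and Sqle, the squalene epoxidase gene, at 60.0 and 79.2 CPM against 7.80 and 25.6 CPM. In each of these genes ZT10 replicate 1 was the lowest library. Dhcr7, which encodes a late enzyme of cholesterol synthesis, was at 43.6 and 56.1 CPM against 8.20 and 16.4 CPM. The sterol-sensing gene Insig1 was at 474 and 746 CPM against 201 and 250 CPM (1.44 ± 0.38, edgeR adjusted p = 0.0997). The difference was smaller for Srebf2 itself, at 32.0 and 36.3 CPM against 19.6 and 24.3 CPM. Genes of this paragraph other than Insig1 were chosen after their values were seen. Without the 4 libraries of ZT02 and ZT06 edgeR called 13 of the 25 higher, and DESeq2 on all libraries called 6.

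Fatty acid synthesis genes lay mostly on the same side with wide differences between the ZT10 libraries. Of 26 tested members of the list of fatty acid synthesis genes and targets of SREBP1, none was called, 16 had both ZT22 libraries above both ZT10 libraries and 1 below, 7 reached an unadjusted p under 0.05, and the median log2 difference was 0.87. Fasn, the fatty acid synthase gene, was at 1418 and 1063 CPM at ZT22 and at 181 and 396 CPM at ZT10 (log2 difference 2.10 ± 0.91, edgeR adjusted p = 0.245). Thrsp, a lipogenic cofactor gene, was at 768 and 501 CPM against 39.6 and 108 CPM (3.10 ± 1.06, edgeR adjusted p = 0.162). Srebf1 was at 400 and 390 CPM against 171 and 202 CPM, and Acly, which supplies cytosolic acetyl-CoA, at 490 and 475 CPM against 166 and 178 CPM. The replicates of Srebf1 and Acly lay close together in both groups. Their adjusted p (edgeR, 0.17 and 0.303), from a spread estimated over all 6 time points, did not pass. With only the 4 libraries of ZT22 and ZT10, edgeR called none of the 25 list members tested there either. Scd1, the stearoyl-CoA desaturase gene, was at 6257 and 6106 CPM against 1483 and 5838 CPM (0.76 ± 0.74), and its log2 difference ran from 0.08 to 2.06 over the leave-one-out fits. Thrsp, Srebf1 and Acly were chosen after their values were seen.

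Genes of fatty acid oxidation lay on the other side. Cyp4a14, a fatty acid ω-hydroxylase gene and target of PPARα (chromosome 4, 115486200 to 115496142), fell from 1015 and 1759 CPM at ZT10 to 266 and 169 CPM at ZT22, a log2 difference of -2.67 ± 0.43 (edgeR adjusted p = 0.0396). It was the only called member of the 38 tested genes of the fatty acid oxidation and PPARα list. Its call held in 6 of the 12 leave-one-out fits and was lost without any 1 of the libraries of ZT10, ZT18 and ZT22 (adjusted p up to 0.22 over all alternatives, log2 difference -3.04 to -2.22). Of the 38, 21 had both ZT22 libraries below both ZT10 libraries and 2 above, 16 had an unadjusted p under 0.05 on the lower side and none on the higher, and the median log2 difference was -0.33. Its close homologue Cyp4a10 was at 383 and 279 CPM against 718 and 1262 CPM (-1.58 ± 0.35, edgeR adjusted p = 0.0785), and reads of the Cyp4a genes may be shared. Ehhadh, the peroxisomal bifunctional enzyme gene, was at 255 and 226 CPM against 331 and 456 CPM, and the thioesterase gene Acot3 at 7.78 and 7.33 CPM against 13.9 and 51.9 CPM. In Cyp4a14, Cyp4a10, Ehhadh and Acot3 ZT10 replicate 2 was the highest library. The mitochondrial genes differed less, with Cpt1a, the carnitine gate of fatty acid import, at 277 and 285 CPM against 387 and 499 CPM, and the dehydrogenase gene Acadm at 178 and 156 CPM against 224 and 230 CPM. Ppara itself was at 130 and 159 CPM against 182 and 177 CPM. Cyp4a10, Ehhadh, Acot3, Cpt1a, Acadm and Ppara were not called and were chosen after their values were seen. DESeq2 called 9 of the list lower and none higher.

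**Figure D3:**
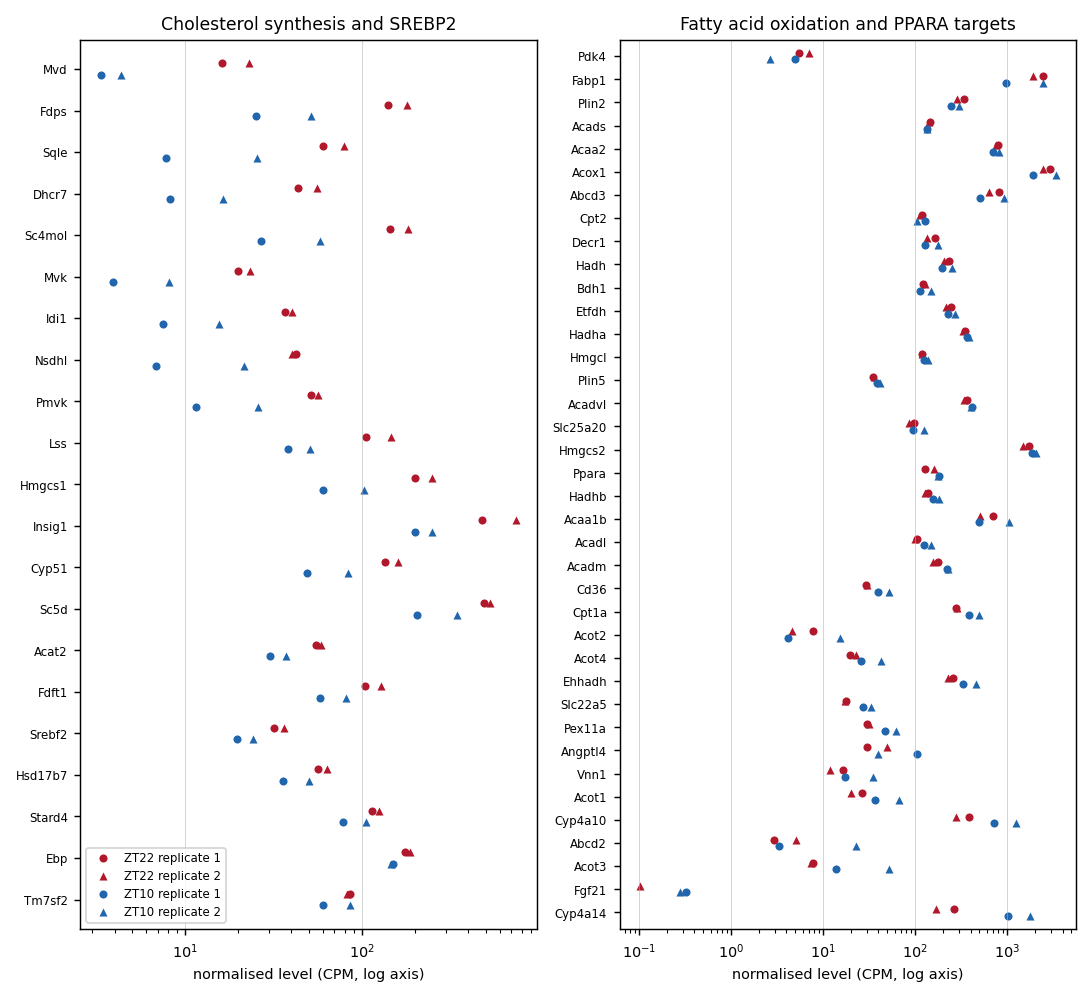
Levels of 21 genes of cholesterol synthesis and SREBP2 targets (left) and the 38 genes of fatty acid oxidation and PPARα targets (right) in CPM on a log axis, 1 point per library, red for ZT22 and blue for ZT10, circles for replicate 1 and triangles for replicate 2, genes ordered by log2 difference. In the left panel 20 of the genes drawn have both red points to the right of both blue points and in the right panel 21 have both to the left; the ZT22 replicate 1 value of Fgf21 was 0 and is not drawn.

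None of 20 genes of fasting and gluconeogenesis was called. In 7 both ZT22 libraries lay below both ZT10 libraries and in 3 above, 7 had an unadjusted p under 0.05 on the lower side, and the median log2 difference was -0.20. Over all tested genes 26.3% lay below and 24.2% above in this way, so the 7 of 20 without overlap were near the background. For an unadjusted p under 0.05 the background was 9.83% on the lower side and 8.68% on the higher, where the list had 0. Pck1 was at 1066 and 1591 CPM at ZT22 and at 5052 and 1845 CPM at ZT10 (log2 difference -1.38 ± 0.46, edgeR adjusted p = 0.158), and it ranged from -1.93 to -0.48 when single libraries were left out. G6pc, the glucose-6-phosphatase gene, was at 188 and 218 CPM against 522 and 238 CPM. In both genes ZT10 replicate 1 alone stood far above the other 3 libraries. Irs2, the insulin receptor substrate gene that insulin represses, was at 9.24 and 9.66 CPM against 18.3 and 15.9 CPM (-0.86 ± 0.22, edgeR adjusted p = 0.0997), with close replicates in both groups. Lpin1 was at 37.3 and 65.6 CPM against 98.7 and 139 CPM. Igfbp1, a binding protein gene induced by fasting, overlapped, at 12.0 and 21.2 CPM against 71.8 and 7.82 CPM, and its direction turned without ZT10 replicate 1 (log2 difference 1.08). Tat overlapped as well, at 750 and 1145 CPM against 1557 and 369 CPM, with a log2 difference of -0.02 ± 0.53. G6pc, Irs2, Lpin1 and Igfbp1 were chosen after their values were seen.

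One gene of glycogen metabolism was called. Ppp1r3g, a subunit that targets protein phosphatase 1 to glycogen (chromosome 13, 35958839 to 35970388), fell from 75 and 233 raw counts at ZT10 to 4 and 13 at ZT22, a summed and depth-scaled ratio of 16.8 (95% counting interval 10.3 to 29.2; edgeR log2 difference -4.03 ± 0.62, adjusted p = 0.0345). Its level was low, at 0.105 and 0.338 CPM against 1.88 and 5.44 CPM. With limma-voom on all 12 libraries Ppp1r3g was not called. The call was lost in 6 of the 12 leave-one-out fits, without ZT10 replicate 2, ZT14 replicate 2 or any library of ZT18 or ZT22 (adjusted p up to 0.181 over all alternatives). Gys2, the liver glycogen synthase gene, was at 157 and 149 CPM against 206 and 234 CPM, and Pygl, the glycogen phosphorylase gene, at 590 and 519 CPM against 344 and 387 CPM. Khk, the ketohexokinase gene that starts fructose use, was at 311 and 299 CPM against 123 and 205 CPM. None of these 3 passed (edgeR adjusted p = 0.0906, 0.19 and 0.128), and they were chosen after their values were seen. Of the 24 members tested, 9 had both ZT22 libraries above both ZT10 libraries and 2 below, with a median log2 difference of 0.16.

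Transcription factors and hormone receptors were among the calls. Hnf4a, which encodes a master regulator of hepatocyte genes (chromosome 2, 163506808 to 163572910), fell from 933 and 907 CPM to 516 and 546 CPM (log2 difference -0.79 ± 0.12, edgeR adjusted p = 0.0345). Id2, whose product inhibits basic helix-loop-helix factors, fell from 220 and 169 CPM to 91.8 and 101 CPM (-1.01 ± 0.13, edgeR adjusted p = 0.0294). Jun, a subunit of AP-1, fell from 21.7 and 18.02 CPM to 10.002 and 8.60 CPM (-1.09 ± 0.19, edgeR adjusted p = 0.0471). Esr1, the oestrogen receptor α gene, rose from 33.8 and 30.9 CPM to 60.7 and 86.9 CPM (1.19 ± 0.17, edgeR adjusted p = 0.0345). The fall of Hnf4a was seen at high and close replicate levels, whereas Jun was near the threshold and lost its call in all 12 leave-one-out fits. The calls of Hnf4a, Id2 and Esr1 held in 6, 8 and 7 of the 12, and all 3 were lost without ZT10 replicate 1, ZT18 replicate 1 or ZT18 replicate 2. Their log2 differences ran from -0.84 to -0.76, from -1.18 to -0.81 and from 0.90 to 1.42 over all alternatives (adjusted p up to 0.254, 0.243 and 0.224).

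Metabolic and transport genes were among the other called rises. Slc22a7, which encodes the organic anion transporter OAT2, rose from 4.29 and 4.25 CPM to 18.5 and 12.1 CPM (log2 difference 1.84 ± 0.28, edgeR adjusted p = 0.0345). Cyp2d40 rose from 43.4 and 34.4 CPM to 99.7 and 113 CPM, and Hsd3b5 and Hsd3b3, steroid dehydrogenase genes, from 90.9 and 86.7 CPM to 149 and 157 CPM and from 98.0 and 108 CPM to 179 and 157 CPM. The Cyp2d and Hsd3b genes belong to families of close copies, so their reads are uncertain. Qsox1, a sulphydryl oxidase gene of the secretory pathway, rose from 272 and 300 CPM to 484 and 504 CPM, and the metalloreductase gene Steap3 from 10.8 and 10.5 CPM to 18.04 and 17.9 CPM. Replicates of Steap3, Qsox1 and Slc46a3, a lysosomal transporter gene (51.4 and 51.4 CPM against 93.4 and 89.3 CPM at ZT22), lay close together. Mpst, a sulphurtransferase gene, rose from 46.5 and 45.4 CPM to 83.4 and 77.9 CPM. Fam114a1 rose from 15.2 and 15.3 CPM to 29.5 and 31.4 CPM (0.998 ± 0.12, edgeR adjusted p = 0.0193). Pim1, a kinase gene that STAT factors induce, rose from 8.78 and 9.57 CPM to 19.4 and 15.6 CPM, the highest adjusted p of the 40 (edgeR, 0.0484). The call of Fam114a1 held in 9 of the 12 leave-one-out fits and those of Slc22a7, Cyp2d40, Hsd3b5, Qsox1, Steap3 and Slc46a3 in 6 each. Those of Hsd3b3, Mpst and Pim1 held in 5, 4 and 4. All 10 were lost without ZT10 replicate 1, ZT18 replicate 2 or ZT22 replicate 1.

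Ptk6 and Gnat2 rose from very low levels. Ptk6, a non-receptor tyrosine kinase gene, went from 18 and 15 raw counts to 167 and 152, a ratio of 10.4 (95% counting interval 7.28 to 15.4; edgeR log2 difference 3.37 ± 0.50). Gnat2, known as the transducin gene of cone photoreceptors, went from 18 and 12 counts to 84 and 73, a ratio of 5.65 (3.80 to 8.65). Snap47, which shares 11.6% of its exon bases with Jmjd4 on the opposite strand, rose from 50.9 and 50.2 CPM to 74.8 and 79.5 CPM, and the uncharacterised gene 4930444A02Rik completed the rises. Among the falls, Capn11, a calpain protease gene (chromosome 17, 45630204 to 45659325), went from 98 and 195 counts to 3 and 2, a ratio of 54.3 with an interval of 23.0 to 169 (edgeR adjusted p = 0.0193). Its call held in 11 of the 12 leave-one-out fits and was lost without ZT22 replicate 1, and its adjusted p reached 0.15 among the alternatives (edgeR). The gene model Gm9992 went from 43 and 67 counts to 8 and 6, a ratio of 7.28 (4.16 to 13.8), and Gm16309 was called lower as well. The calls of Ptk6 and Gnat2 held in 7 and 4 of the 12, and those of Snap47, 4930444A02Rik, Gm9992 and Gm16309 in 6 each. PCR duplicates share a molecule, and the intervals reflect counting error alone.

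The other called falls had no fixed list in common. Bnip3, a mitophagy receptor gene, fell from 223 and 265 CPM to 140 and 128 CPM (log2 difference -0.87 ± 0.12, edgeR adjusted p = 0.0345). Tmem106b, which encodes a lysosomal membrane protein, fell from 359 and 382 CPM to 223 and 209 CPM, and Rnf145, an ER ubiquitin ligase gene, from 42.4 and 45.9 CPM to 24.0 and 24.9 CPM. The replicates of these genes differed by far less than the groups. Tbc1d8, a Rab GTPase-activating protein gene, fell from 26.4 and 28.0 CPM to 11.1 and 13.5 CPM (-1.14 ± 0.14, edgeR adjusted p = 0.0193). Ppp1r10, a nuclear phosphatase subunit gene, fell from 67.0 and 70.4 CPM to 28.0 and 40.4 CPM, Pogk from 22.9 and 20.3 CPM to 8.56 and 10.3 CPM and Dcaf6 from 58.9 and 65.5 CPM to 31.6 and 31.0 CPM. Exons of Pogk and Tbc1d8 overlap Tada1 and Rpl31 on the opposite strand, over 11% and 8% of their bases. The calls of Tbc1d8, Bnip3 and Dcaf6 held in 8, 7 and 6 of the 12 leave-one-out fits, and those of Ppp1r10, Rnf145, Tmem106b and Pogk in 5, 5, 4 and 2.

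**Figure D4:**
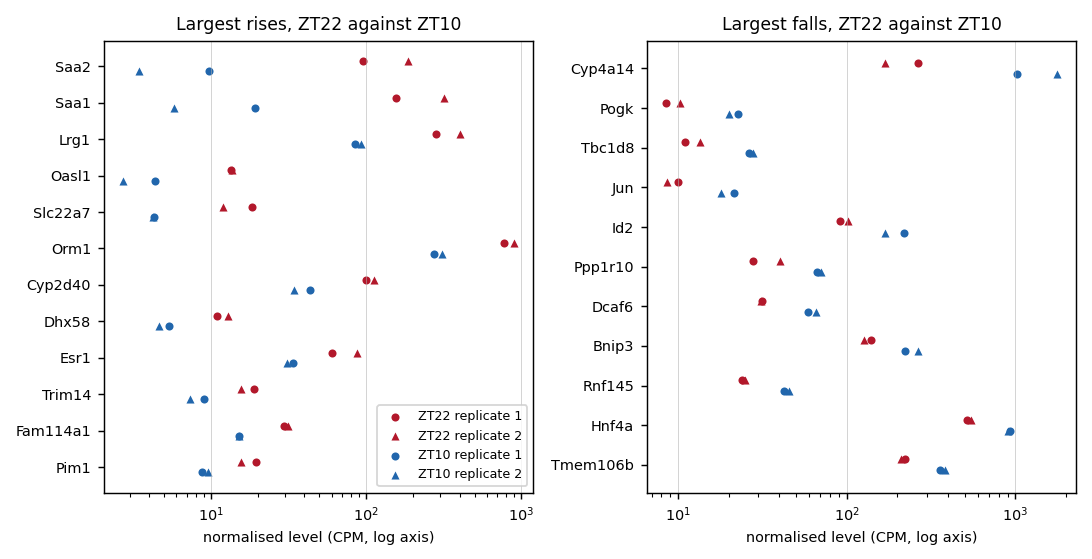
Levels of the 12 largest called rises (left) and 11 of the 12 largest called falls (right) with a mean of at least 5 CPM, on a log axis, 1 point per library, red for ZT22 and blue for ZT10, circles for replicate 1 and triangles for replicate 2. In every row the red and blue points are apart; the gap is widest for Saa2 and Saa1 on the left and Cyp4a14 on the right.

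Over the 22 gene lists, 9 of 579 distinct entries were called (1.55%, against 0.233% of all tested genes). The 579 include a few entries that were not tested, and the lists were drawn up with earlier results of these data known. The 9 were Saa1, Saa2, Orm1, Oasl1, Hsd3b5, Cyp4a14, Ppp1r3g, Bnip3 and Jun. In the autophagy and lysosome list, Bnip3 was the only call of 21 genes, 12 had both ZT22 libraries below both ZT10 libraries and 1 above, and the median log2 difference was -0.15. Gabarapl1, an autophagosome gene chosen after its values were seen, was at 145 and 136 CPM against 272 and 283 CPM (-0.98 ± 0.19, edgeR adjusted p = 0.0606), with close replicates in both groups. In the immediate-early list, Jun was the only call of 13 tested genes, while 2 lay wholly higher (both ZT22 libraries above both ZT10 libraries) and 6 wholly lower. Its relative Jund was at 47.5 and 48.2 CPM against 69.8 and 71.3 CPM (edgeR adjusted p = 0.0832). In the list of growth hormone and STAT5 targets, Hsd3b5 was the only call of 21 genes. Of these, 5 lay wholly higher and 4 wholly lower, and the median log2 difference was 0.04. Serpina12, the vaspin gene on that list, was at 15.4 and 8.26 CPM against 4.06 and 4.76 CPM (1.42 ± 0.27, edgeR adjusted p = 0.0573). Jund and Serpina12 were chosen after their values were seen.

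Chaperone genes of the endoplasmic reticulum lay mostly higher at ZT22 without a call. Of 24 tested ER chaperone and unfolded protein response genes, 13 had both ZT22 libraries above both ZT10 libraries and 2 below, 9 had an unadjusted p under 0.05 on the higher side and 1 on the lower, and the median log2 difference was 0.45. Calr, the calreticulin gene, was at 1035 and 1168 CPM against 806 and 426 CPM (0.84 ± 0.29, edgeR adjusted p = 0.163), and P4hb, a disulphide isomerase gene, at 1629 and 1817 CPM against 1402 and 1070 CPM. Creld2, an ER stress gene, was at 39.7 and 47.7 CPM against 26.7 and 20.2 CPM (edgeR adjusted p = 0.131). Hspa5, the BiP gene, was at 978 and 763 CPM against 750 and 556 CPM. In all 4 genes ZT10 replicate 2 was the lowest library. Herpud1, an ER degradation gene, lay on the other side, at 319 and 331 CPM against 525 and 411 CPM. Creld2, Hspa5 and Herpud1 were chosen after their values were seen.

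Upstream stretches of Creld2 and Calr are shown because both genes lay wholly higher and hold the ER stress response element, the long motif of this gene group. Capitals mark the element, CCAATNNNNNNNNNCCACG searched on both strands, whose first base lies 126 bases before the start of Creld2 (chr15:88819396-88819595, plus strand) and 162 bases before that of Calr (chr8:84846982-84847181, minus strand); both are read on the opposite strand.
Creld2: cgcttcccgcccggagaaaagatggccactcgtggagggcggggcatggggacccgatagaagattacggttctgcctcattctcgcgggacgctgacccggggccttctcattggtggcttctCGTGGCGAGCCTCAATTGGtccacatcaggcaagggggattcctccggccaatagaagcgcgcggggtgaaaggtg
Calr: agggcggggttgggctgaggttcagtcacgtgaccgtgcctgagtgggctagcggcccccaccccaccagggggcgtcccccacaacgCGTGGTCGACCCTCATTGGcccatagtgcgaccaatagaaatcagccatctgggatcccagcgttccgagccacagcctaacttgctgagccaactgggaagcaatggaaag
Of the 21 genes of this list with a RefSeq window, 9 held the element (42.9%), against 0.168% of all tested genes with a window. The windows of Sdf2l1 and Pdia4, also on this list, held no match. The element was in 0 of 18 windows of the called rises and 0 of 13 of the called falls. Whether members with and without it differed in level was not tested. For comparison, the sterol regulatory element letters TCACNCCAC were in 1 of the 17 cholesterol genes with a window, that of Hmgcs1 (5.88%, against 1.46% of all), and the heat shock element GAANNTTCNNGAA in 4 of 14 heat shock factor targets (28.6%, against 0.548%). Among the called falls the E-box letters CACGTG were in 3 of 13 windows (23.1%, against 11.4%). Among the called rises they were in 1 of 18 (5.56%). So few windows give imprecise shares, and over the gene lists the E-box share ran from 0% (interferon) to 41.2% (autophagy).

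The heat shock list showed no common direction. Of its 18 genes none was called, 8 lay wholly higher and 2 wholly lower, and the median log2 difference was 0.20. Hspe1, a mitochondrial chaperonin gene, was at 117 and 120 CPM against 80.1 and 89.2 CPM, and Fkbp4, a cochaperone gene of HSP90, at 192 and 192 CPM against 138 and 131 CPM. The inducible HSP70 gene Hspa1b overlapped, at 5.24 and 2.23 CPM against 4.64 and 17.1 CPM, as did Hspa8, at 660 and 449 CPM against 575 and 959 CPM. Hspe1, Fkbp4 and Hspa1b were chosen after their values were seen.

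Glucocorticoid-responsive and ribosome biogenesis genes lay more often lower than higher, again with no call. Of 17 glucocorticoid-responsive genes, 6 were wholly lower and 2 wholly higher, with a median log2 difference of -0.32. Over all tested genes 26.3% were wholly lower and 24.2% wholly higher, so the 6 of 17 lay near the background. An unadjusted p under 0.05 was reached by 5 on the lower side and 1 on the higher, against 9.83% and 8.68% of all tested genes. Fkbp5, a classical target of the glucocorticoid receptor, was at 26.0 and 46.5 CPM against 65.5 and 70.9 CPM (-0.91 ± 0.27, edgeR adjusted p = 0.126). Dusp1 was at 9.19 and 8.47 CPM against 47.7 and 12.5 CPM. Lcn2, which is on this list too, lay on the other side. Of 25 ribosome biogenesis genes, 12 were wholly lower and 1 wholly higher, 11 had an unadjusted p under 0.05 on the lower side and none on the higher, and the median was -0.30. Nolc1, a nucleolar factor gene, was at 27.7 and 36.2 CPM against 35.7 and 47.2 CPM, and Npm1, the nucleophosmin gene, at 97.0 and 92.1 CPM against 101 and 161 CPM. In both, ZT10 replicate 2 was the highest library. Fkbp5, Dusp1 and Nolc1 were chosen after their values were seen.

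The cell cycle list held genes on both sides. Of 21 cell cycle genes, none was called, 9 were wholly higher and 4 wholly lower, and the median log2 difference was 0.33. Ccnd1, the cyclin D1 gene, was at 24.1 and 31.4 CPM against 10.9 and 18.4 CPM (0.92 ± 0.22, edgeR adjusted p = 0.0874), and 23.4% of its exon bases overlap Oraov1 on the opposite strand. Mcm2 and Mcm5, subunits of the replicative helicase chosen after their values were seen, were at 5.21 and 8.18 CPM against 3.11 and 2.47 CPM and at 3.61 and 6.36 CPM against 1.28 and 1.66 CPM. Myc, on this list too, owed its log2 difference of 2.68 to ZT22 replicate 1, and without that library it was -0.37.

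Clock, ribosomal protein and respiratory chain genes differed little. Of 20 tested core clock and clock output genes none was called, 3 were wholly higher and 5 wholly lower, and the median log2 difference was -0.20. Tef, a clock-controlled transcription factor gene, was at 223 and 220 CPM against 255 and 255 CPM. Arntl, the BMAL1 gene, was at 10.3 and 11.7 CPM against 12.6 and 6.72 CPM, Nr1d1 at 10.8 and 18.7 CPM against 19.1 and 13.6 CPM, and Per2 at 66.4 and 67.8 CPM against 55.0 and 66.4 CPM. The direction of Arntl turned without ZT10 replicate 2 and that of Nr1d1 without ZT10 replicate 1 or ZT22 replicate 1. Arntl, Nr1d1 and Per2 were chosen after their values were seen. Of 78 cytosolic ribosomal protein genes none was called and the median was -0.04, within a range of -0.26 to 0.31, and Rpl4 was at 425 and 437 CPM against 395 and 450 CPM. Of 28 respiratory chain genes none was called, and log2 differences ran from -0.14 to 0.28. Their median of 0.01 turned to -0.01 when levels were scaled by total counts only.

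No gene was called in the lists of bile acid synthesis and transport, drug metabolism, the urea cycle and amino acid catabolism, or the ATF4 response. Of 22 bile acid genes 3 were wholly higher and 9 wholly lower. The log2 difference was positive in 11 of them, and the median was -0.03. The canalicular transporter genes Abcc2 and Abcb4, chosen after their values were seen, were at 272 and 291 CPM against 402 and 380 CPM (edgeR adjusted p = 0.107) and at 212 and 165 CPM against 255 and 321 CPM (0.149). Slco1b2, a bile acid uptake transporter gene, was at 1134 and 979 CPM against 1668 and 1324 CPM. Slc27a5, another member, overlapped, at 1230 and 1169 CPM against 1016 and 1209 CPM. Of 28 drug metabolism genes 4 were wholly higher and 10 wholly lower, against 24.2% and 26.3% of all tested genes. Their median log2 difference was -0.14, and Cyp3a11 overlapped, at 8694 and 5338 CPM against 5921 and 8363 CPM. Nr1i3, the gene of the xenobiotic receptor CAR, also chosen after its values were seen, was at 215 and 230 CPM against 449 and 305 CPM, and Cyp2e1 at 4087 and 4174 CPM against 5246 and 6322 CPM. Of 32 urea cycle and amino acid genes 8 were wholly higher and 2 wholly lower, and Cps1, which starts the urea cycle, was at 7167 and 6384 CPM against 7289 and 5195 CPM. Of 20 tested ATF4 targets 4 were wholly higher and 8 wholly lower, with Shmt2 at 155 and 140 CPM against 113 and 112 CPM.

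**Figure D5:**
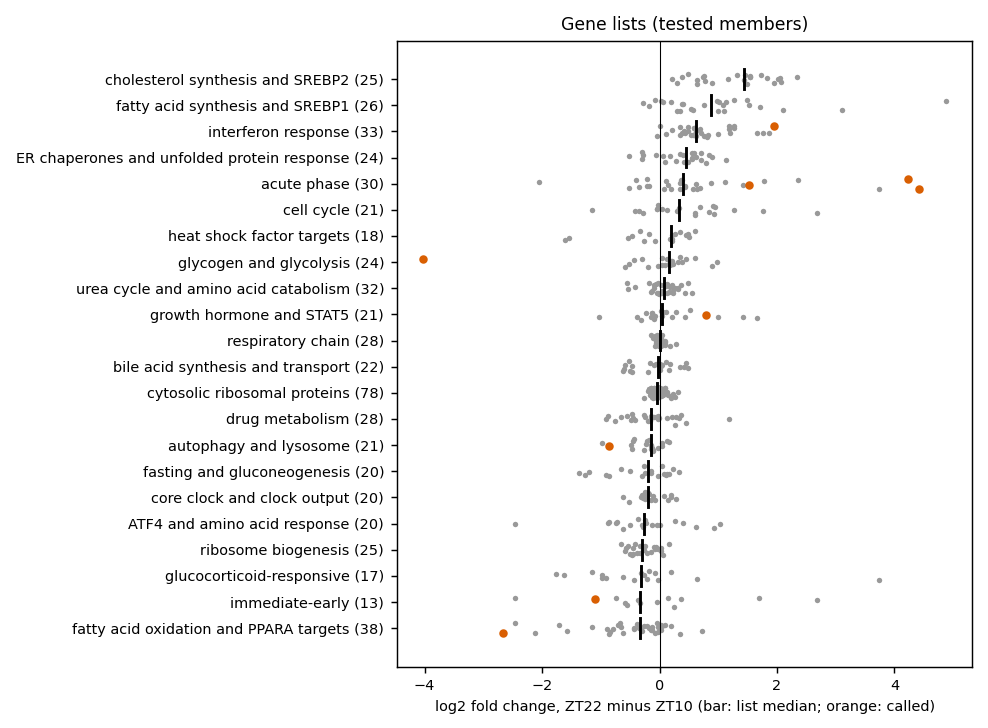
Log2 difference (ZT22 minus ZT10) of each tested member of the 22 gene lists, 1 point per gene, with a black bar at the list's median, called genes in orange and the number of tested members in brackets. The medians run from 1.44 for cholesterol synthesis and SREBP2 to -0.33 for fatty acid oxidation and PPARα targets, against 0.002 for all tested genes.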

How the data were processed

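Per the labels' protocols, liver total RNA was depleted of ribosomal RNA and sequenced as stranded paired-end libraries. The deposited values are raw counts of exon reads for each gene in 12 libraries, 2 at each of 6 time points. STAR 2.4.0i and mm10 are named in the submitters' processing notes. How reads were counted, with which strand setting and annotation, is not given in the sources used here.

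Library totals ran from 34715506 to 46074052 counts, so a gene with no read lies below 0.0651 to 0.0864 CPM (3 counts). edgeR 4.0.16 (R 4.3.3) was run with TMM factors and its filter on low counts (min.count 10, min.total.count 15) on all 12 libraries in 6 groups, with 6 residual degrees of freedom. The contrast was ZT22 minus ZT10, with a quasi-likelihood test and Benjamini-Hochberg adjustment over 17142 genes, called under 0.05. Standard errors were derived from the log2 difference and the F statistic, and the code was tested on simulated data. Replicates of both groups differed by more than counting noise. Alternatives used RLE factors or total counts, DESeq2 1.42.0, limma-voom 3.58.1, other filters, fewer libraries, replicate blocks and leaving out each library.

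The members and lists were chosen with earlier results of these data known. The naming rule took Cry1 and Cry2, the 12 largest called rises and 12 largest called falls whose groups did not overlap and whose mean reached 5 CPM, passing over genes known only by a clone or model name, and from each list up to 4 called members or else the 2 most abundant. Other called genes are named because they were called. Gene positions came from GENCODE (mm10), matched for 22054 of 22618 genes. Promoter windows came from RefSeq (GRCm38.p6) for 11319 tested genes. The motifs of the interferon-stimulated response element, STAT, NF-kB and sterol regulatory element were added after values were seen. Some genes that the naming rule takes are not reported here.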

Additional observations from a re-analysis of the deposited data

How the results depend on the processing

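No called gene changed direction in any of the 24 alternatives. The libraries of the groups did not overlap in any of the 40, so a change of direction was hardly possible. None of the 40 calls held in all 12 fits that left out 1 library. RLE factors called 45 genes, with all 40 among them, total counts 55 (25 lower) and limma-voom 36. Of the 40, limma-voom did not call Ptk6, Gnat2, Ppp1r3g, Slc22a7, Jun and Pim1, and total counts did not call Rnf145 and Steap3. DESeq2 called 711 genes (382 higher, 329 lower, 143 at least 2-fold, 69 in the gene lists). Without a filter 60 were called (38 higher, 37 at least 2-fold), and with a mean of at least 5 CPM 150 (103 higher, 47 lower, 39 at least 2-fold). Without ZT02 and ZT06 the counts were 250, 158, 92 and 105, with 38 in the lists. The 4 libraries alone gave 1 call, higher and at least 2-fold, 0 lower and 0 in the lists, with 2969 genes at an unadjusted p under 0.05. The causes of these shifts were not tested. Leaving out 1 library gave 2 to 72 calls, 1 to 50 higher, 0 to 24 lower, 2 to 55 at least 2-fold and 0 to 14 in the lists.

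The differences between replicates 1 and 2 were weakly and negatively correlated between ZT22 and ZT10 (r = -0.21 over 9864 genes). This single correlation cannot show whether libraries with equal replicate numbers were paired. The replicate block in the 6-group fit called 41 genes, 36 of them among the 40. Cyp4a14, Hsd3b3, Pim1 and Tmem106b lost their calls there. The replicate block with the 4 libraries called 0, 0 higher, 0 lower, 0 at least 2-fold and 0 in the lists by edgeR, with 2247 at an unadjusted p under 0.05. The crossed pairing, chosen after seeing the data, called 263 genes with the 4 libraries (171 higher, 92 lower, 148 at least 2-fold, 55 in the lists) and 62 in the 6-group fit (38 higher, 35 at least 2-fold).

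Log2 differences that changed sign belonged to genes that were not called. Tat, at -0.02, was 0.29 by limma-voom, 0.02 with the 5 CPM filter, 0.19 and 0.30 with the replicate block in the 6-group and 4-library fits, 0.30 and 0.008 with the crossed pairing, and -0.71 to 1.36 without single libraries. Cyp3a11 was 0.011 with the 5 CPM filter, and Atp5b 0.005 with RLE factors, 0.003 by DESeq2 and 0.03 with the 5 CPM filter. Without single libraries the ranges were -0.39 to 0.072 for Errfi1, -0.014 to 0.24 for Slc27a5, -0.42 to 0.28 for Cyp3a11, -0.10 to 0.38 for Cps1, -0.16 to 0.59 for Atf5, -0.064 to 0.13 for Rpl4, -0.031 to 0.15 for Rps2, -0.034 to 0.014 for Atp5b, -0.06 to 0.13 for Atp5a1, -2.11 to 1.08 for Igfbp1, -0.36 to 3.89 for Myc, -0.19 to 0.71 for Arntl, -0.013 to 0.16 for Dbp, -0.61 to 0.19 for Nr1d1, -0.20 to 3.49 for Krt19.

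Precision is limited by 2 libraries a group and by differences between the ZT10 libraries in genes such as Pck1 and Scd1. Genes near 3 counts, such as Capn11 at ZT22, give ratios with wide intervals.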
